A study of Rattus norvegicus with 16 samples.

Results

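The genes described here encode 10 integrin subunits: Itga1, Itga2, Itga3, Itga5, Itga6, Itgav, Itgb1 and Itgb6, which serve adhesion of epithelial and connective tissue cells, and Itgb2 and Itgam, which leukocytes carry. They were chosen by name. The array listed 18 probes under these names, of 45598 probes in all, and 8 of the 10 genes were among the 16007 genes tested. Itga2 and Itga5 did not reach the detection filter and were tested only with that filter left out. The arrays carried RNA from kidney cortex of male Jcl:SD rats, either wild-type or BRCA1+/- (heterozygous). The nature of the BRCA1 mutation was not given in the sources used here. Treated rats received intraperitoneal ferric nitrilotriacetate (Fe-NTA), an iron chelate that injures the proximal tubule through oxidative damage, starting at 4 weeks of age, with 5 injections a week. The iron dose was 5 and then 7 mg per kg in the first week, and 10 mg per kg after it in the 3-week groups. Rats were killed 48 h past their final dose, and the cortex was excised. Per genotype, 2 arrays held control cortex, 3 the 1-week and 3 the 3-week treatment, making 16 arrays altogether. The labels call the control tissue normal and give neither its age nor a vehicle, so age and treatment cannot be told apart. They do not say whether an array held RNA of 1 rat.

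An integrin is a pair of 1 alpha and 1 beta chain that spans the cell membrane and ties the matrix outside to the actin or keratin skeleton inside. In the kidney the beta 1 chain pairs with alpha 3 and alpha 6 on laminin of tubule and glomerular basement membranes, and with alpha 1 and alpha 2 on collagen. The alpha v chain, with beta 6 on epithelium, binds matrix proteins that hold the sequence Arg-Gly-Asp (RGD), and alpha v beta 6 releases active transforming growth factor beta. The beta 2 chain with alpha M forms Mac-1 (CD11b/CD18), the complement and fibrinogen receptor of macrophages and neutrophils.

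Several of the results below turn on which probe reported the gene, so those probes are shown first. Each is a DNA strand of 60 bases, and its place is the one listed by the array files, whose headers name the rat build rn4 (RGSCv3.4). For probes not known to lie in coding sequence the first 30 bases are printed, 5′ to 3′. The probe that gave the Itgam level (chr1:187385777-187385836, plus strand) opened with a CA repeat, in capitals, and the other Itgam probe (chr1:187385032-187385565, plus strand) and the Itga1 probe (chr2:47107893-47112038, minus strand) covered the codons just inside the membrane that most integrin alpha chains share, in capitals. The probes of Itga6 (chr3:54274884-54274943, plus strand for the one used, chr3:54263800-54263859, plus strand for the other) and of Itgb1 (chr19:58600126-58600185, minus strand for the one used, chr19:58600532-58600591, minus strand for the other) are shown because the probes of a gene differed in their result. The 3 Itga3 probes lay apart along the transcript and were all called higher at 1 week in wild-type rats, and the one used (chr10:83728587-83728646, minus strand) stands for them.
Itgam, probe used: CACACACACAcggttttaaacaagtggtag
Itgam, other probe: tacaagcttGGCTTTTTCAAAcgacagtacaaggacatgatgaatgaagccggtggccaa
Itga1: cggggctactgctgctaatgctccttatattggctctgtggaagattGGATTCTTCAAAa
Itga6, probe used: atgacaacccgagttacctttctttgtatt
Itga6, other probe: ctcacaactcaagaaagaagcgggaacttc
Itgb1, probe used: ctagtcaccaccttgttttaagtgcctttt
Itgb1, other probe: gtgagttacttgatcctgtaactcccaacg
Itga3, probe used: ccggaatgggttttatgagtggctctctaa

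Levels are log2 values of the processed signal relative to the 75th percentile of the same array, so 0 marks that percentile. A gene with several probes past the filter was read from its brightest one. Levels of different genes come from different probes and are not compared. A change is called where limma's moderated test, fitted over all 16007 genes with 10 residual degrees of freedom, gave a Benjamini-Hochberg adjusted p under 0.05. The p-values measure the spread between arrays of a group. The share of probes well above background ran from 32.7% to 60.4% over the arrays, and no probe was saturated. Wild-type 1-week replicate 3 stood apart: it correlated with the other arrays of its group at 0.905 and 0.908, where all other pairs within a group lay between 0.9635 and 0.981. The arrays lay on 2 slides that each held all 6 groups. In bulk cortex, fewer cells of a type and less RNA per cell cannot be told apart.

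After 1 week in wild-type rats, 1 of the 8 tested subunits rose (Itga3) and 1 fell (Itga6), where 12.8% of all genes rose and 14.3% fell. After 3 weeks in wild-type rats Itga3 alone was called, as higher, beside 8.72% of all genes higher and 5.52% lower. In heterozygous rats 1 week of Fe-NTA gave 1 rise (Itga3) and 1 fall (Itgam), with 4.28% of all genes up and 3.2% down. After 3 weeks in heterozygous rats 4 subunits rose (Itga3, Itgav, Itgb1 and Itgb2) and Itgam fell, beside 9.35% of all genes up and 6.52% down. With no filter on dim probes, the calls that held were those of Itga3 and Itga6 in wild-type rats at 1 week and the fall of Itga3 from 1 to 3 weeks in those rats. These treated groups share their control arrays within a genotype, so the comparisons are not independent. Of the 6 tested epithelial members 1, 1, 1 and 3 rose and 1, 0, 0 and 0 fell in these comparisons, and the 2 leukocyte members gave the remaining calls. The median change of the 8 tested subunits was 0.29 and 0.64 in wild-type rats at 1 and 3 weeks and 0.43 and 0.98 in heterozygous rats. With Itgb2 left out, which no control array measured, it was -0.13 and 0.47 in wild-type rats and 0.41 and 0.92 in heterozygous rats, so that at 1 week in wild-type rats its direction turned. The median of all genes lay between -0.03 and 0.01 in these comparisons.

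**Figure D1:**
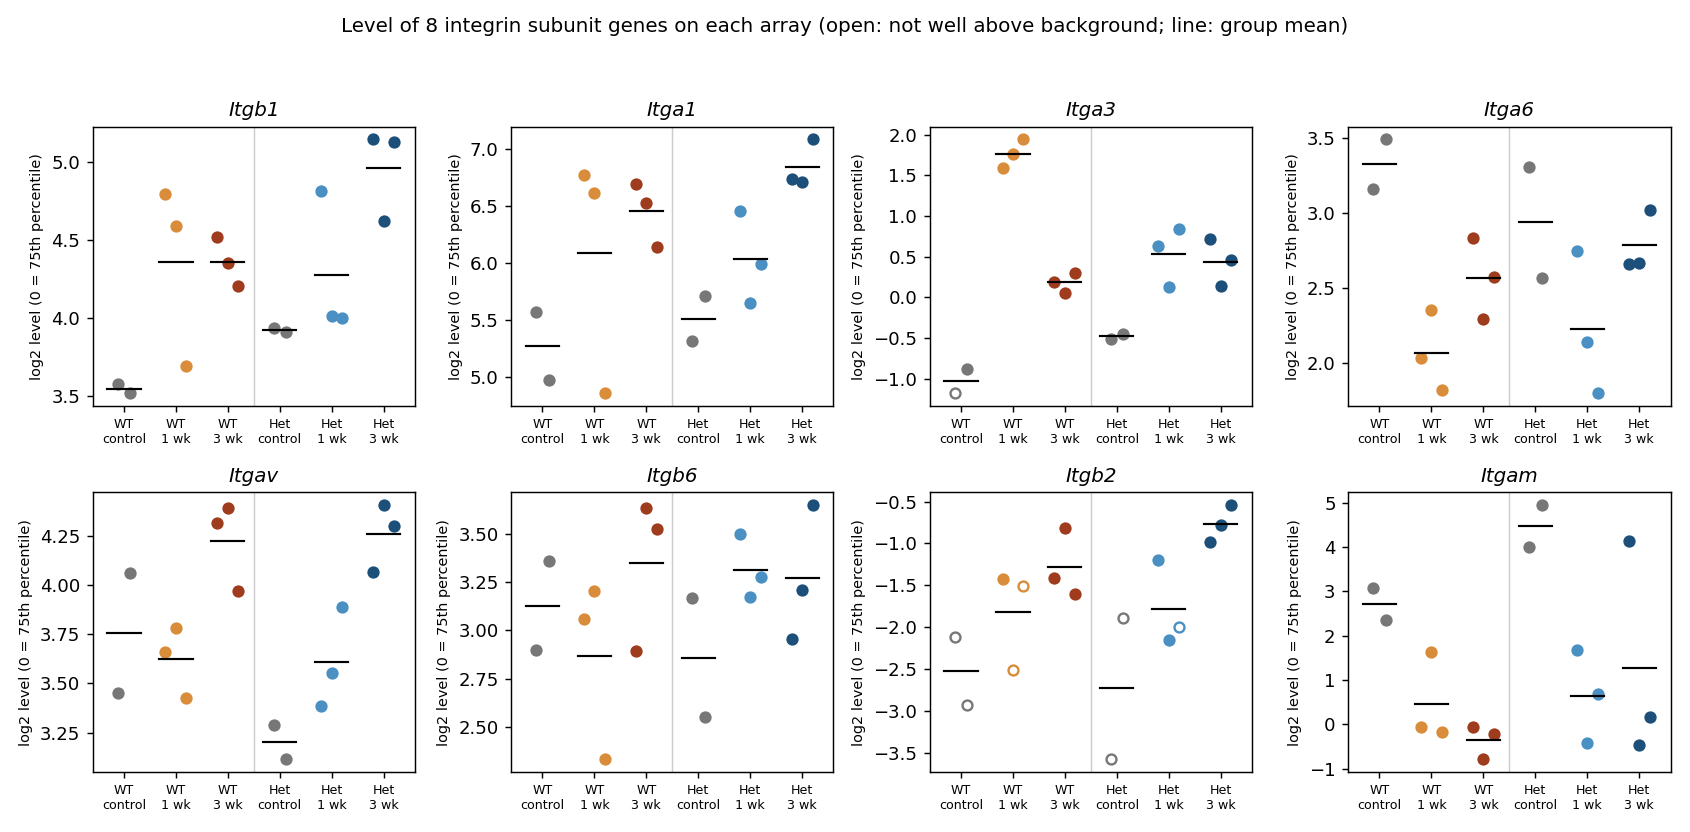
Log2 level (0 is the 75th percentile of the array) of the 8 tested integrin subunit genes on each of the 16 arrays, by genotype (WT, wild-type; Het, heterozygous BRCA1+/-) and weeks of Fe-NTA. Filled points were well above background, open points were not, and lines are group means. Itga3 is at 1.59 to 1.94 on the 3 wild-type 1-week arrays and below 0 on all 4 control arrays, while the wild-type 1-week array low for Itga1 (4.85) and Itgb1 (3.69) is replicate 3.

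Itga3 encodes the alpha 3 chain, which with beta 1 binds laminins and holds podocytes and tubule cells to their basement membranes. Its level was -1.18 and -0.88 on the wild-type control arrays, the first not well above background. It was 1.59, 1.76 and 1.94 after 1 week and 0.19, 0.06 and 0.30 after 3 weeks. All treated wild-type arrays were above both controls, and the 1-week arrays were above every other array of the series. The rise was 2.80 ± 0.26 (SE) at 1 week, adjusted p = 8.11e-06, and 1.21 ± 0.26 at 3 weeks, adjusted p = 0.00731. The level then came down between 1 and 3 weeks by 1.58 on the log2 scale, with an SE of 0.24 and adjusted p = 0.00200. Itga3 was the only tested member among the 2.78% of all genes called lower in that comparison. No member was among the 5.54% called higher.

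In heterozygous rats Itga3 stood at -0.51 and -0.45 on the controls. It was 0.63, 0.13 and 0.84 at 1 week and 0.71, 0.14 and 0.46 at 3 weeks. The treated arrays were again all above the controls, with the 1-week and 3-week arrays in the same range. The changes were 1.02 ± 0.26 (adjusted p = 0.0306) and 0.92 ± 0.26 (adjusted p = 0.0297). Both calls were lost when either heterozygous control was left out, when replicate 1 or 3 of the treated group was left out, or under normexp background correction (0.45 and 0.41). The 1-week call was also lost with only the groups compared (1.02, adjusted p = 0.0801). The 3-week call was also lost with the mean of the 3 probes (0.86, adjusted p = 0.0587). Over the omissions of an array the 1-week change was 0.86 to 1.05 (adjusted p 0.0764 to 0.184) and the 3-week change 0.78 to 0.95 (adjusted p 0.0831 to 0.158). In wild-type rats the 1-week call held in every omission and under normexp, where the change was 1.18 (adjusted p = 0.000123), and the 3-week call was lost without control replicate 1 (1.07, adjusted p = 0.0807) and under normexp (0.33, adjusted p = 0.134).

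The 3 Itga3 probes lay at positions 4088 (used), 2363 and 2864 of the transcript as listed by the array. At 1 week in wild-type rats all were called. The first 2 rose by 2.80 and 1.91 ± 0.35, and the probe at position 2864, not well above background on any control, was at least 3.07-fold higher (adjusted p = 0.000746). The probe at position 2864 passed the filter only through the 1-week groups, where it was brightest. That probe fell by 1.94 from 1 to 3 weeks (adjusted p = 0.0207), when 2 of 3 arrays measured it. The change of the probe at position 2363 was -0.86 there, adjusted p = 0.109. In heterozygous rats the probe at position 2363 was called at both times (1.58 and 1.08), and the probe at position 2864 at neither (at least 2.64-fold and 1.47-fold higher, adjusted p = 0.116 and 0.452). The changes of the probe used were as large within each slide: 2.65 and 2.94 at 1 week and 1.00 and 1.48 at 3 weeks in wild-type rats, and 1.14 and 0.94, then 0.97 and 0.88, in heterozygous rats.

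Itga6 encodes the alpha 6 chain of the laminin receptors alpha 6 beta 1 and alpha 6 beta 4, the latter the core of hemidesmosomes. On the probe used, wild-type controls were at 3.16 and 3.49. The 1-week arrays were at 2.03, 2.35 and 1.82, and the 3-week arrays at 2.83, 2.29 and 2.57. Both treated groups lay below the controls without overlap. The fall at 1 week was called (-1.26 ± 0.32, adjusted p = 0.00911), and the 3-week change of -0.76 ± 0.32 was not (adjusted p = 0.126). The 1-week call was lost without control replicate 2 (-1.09, adjusted p = 0.0970) and under normexp (-0.64). It was also lost with only the groups compared (-1.26, adjusted p = 0.0796). Within the 2 slides the change was -1.57 and -0.81.

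Heterozygous controls gave 3.31 and 2.57 for Itga6 on that probe, and the treated arrays (1.80 to 3.02) overlapped them. Neither change was called (-0.71 and -0.16, each ± 0.32). The other Itga6 probe, at position 2876, read the controls within a narrower range. They were at 3.49 and 3.28 in wild-type and 3.402 and 3.372 in heterozygous rats. On every treated array of either genotype it was lower, between 1.80 and 2.64. Tested over all probes past the filter, this probe fell in all 4 comparisons with control. The changes were -1.30 and -1.10 in wild-type rats at 1 and 3 weeks, adjusted p = 0.00179 and 0.0115. In heterozygous rats they were -1.18 and -1.32, adjusted p = 0.0126 and 0.00411. The mean of both probes, set as an alternative, was likewise lower in all 4 comparisons (-1.28, -0.93, -0.95 and -0.74) and called in each. The laminin receptor chains alpha 3 and alpha 6 thus moved in opposite directions at 1 week in wild-type rats.

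**Figure D2:**
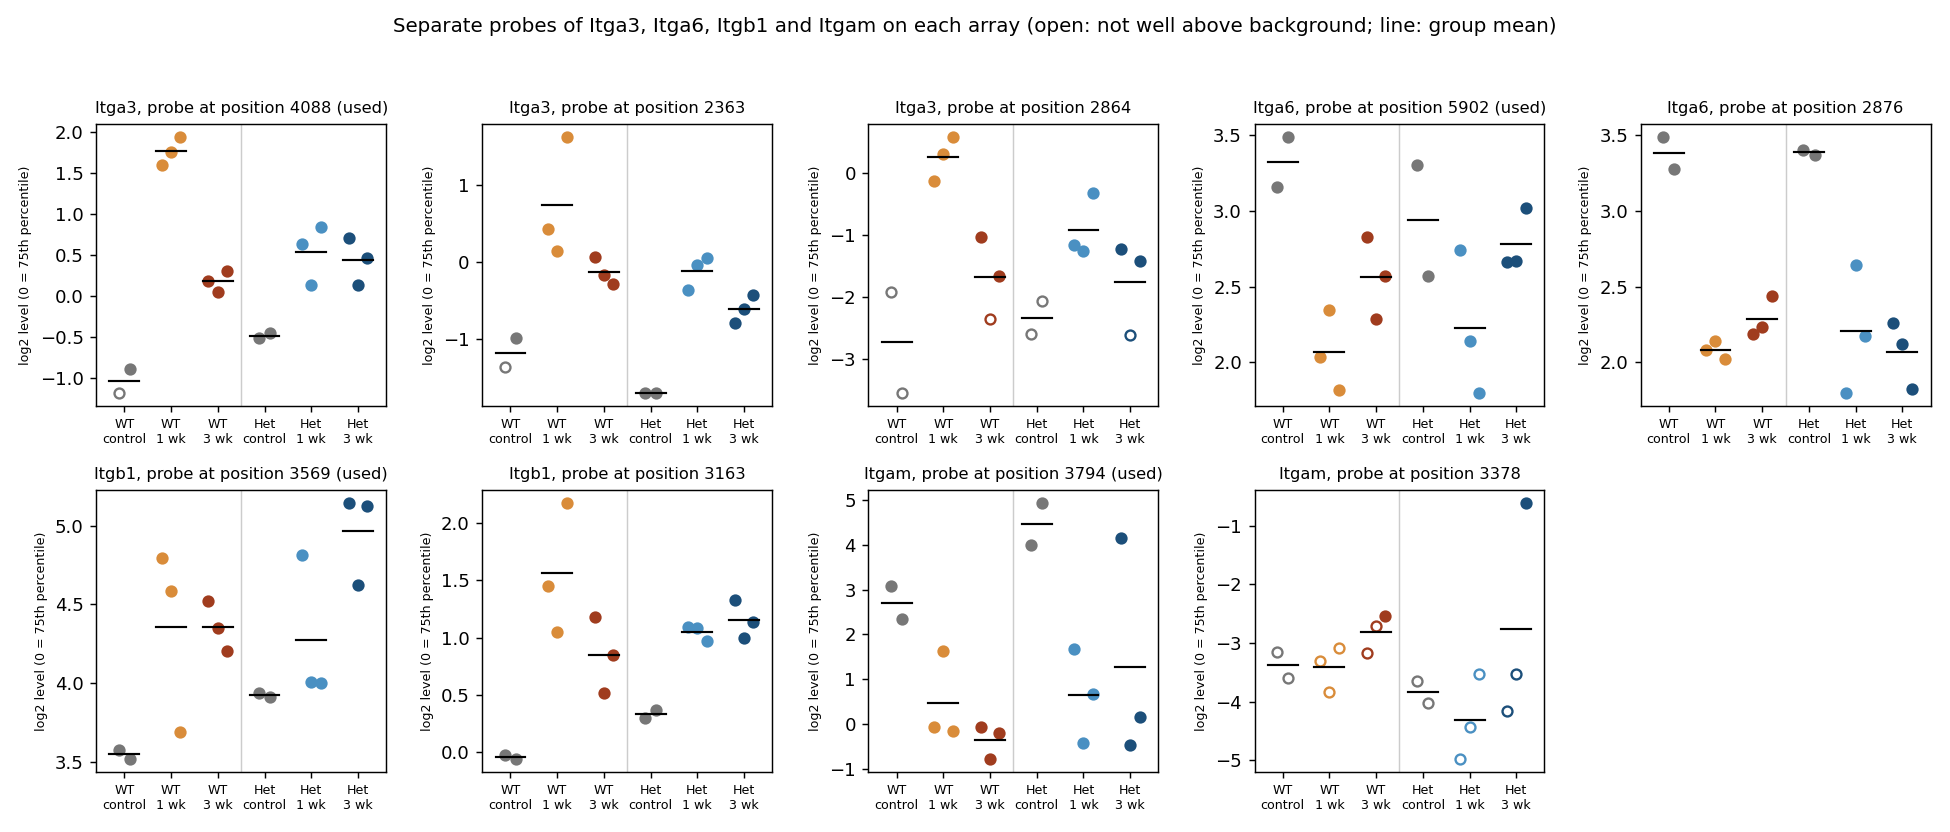
Log2 level of each probe of Itga3, Itga6, Itgb1 and Itgam on the 16 arrays, each panel headed by the position of the probe in the transcript as listed by the array files. Filled points were well above background and lines are group means. The Itga6 probe at position 2876 is lower on all 12 treated arrays than on the 4 controls, and the Itgam probe at position 3378 is well above background on 2 arrays while the probe at position 3794 is so on all 16.

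Itgb1 encodes the beta 1 chain, the partner of most alpha chains of epithelium and stroma. The probe used was printed as 10 spots on each array, which were averaged. Wild-type controls read 3.58 and 3.52, the 1-week arrays 4.79, 4.59 and 3.69, and the 3-week arrays 4.52, 4.35 and 4.21. Heterozygous controls were at 3.94 and 3.91, the 1-week arrays at 4.82, 4.01 and 4.00, and the 3-week arrays at 5.15, 4.62 and 5.13. Every treated array was above both controls of its genotype. The only call was at 3 weeks in heterozygous rats (1.04 ± 0.34, adjusted p = 0.0487), and it lay so near the threshold that omitting any array but 4 ended it (0.95 to 1.05, adjusted p 0.05 to 0.198). The 4 were wild-type 1-week replicates 1 and 3, heterozygous 1-week replicate 1 and heterozygous 3-week replicate 2. Normexp ended it too (1.11, adjusted p = 0.122). The other 3 changes were 0.81, 0.81 and 0.35, each ± 0.34.

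The Itgb1 result in wild-type rats depended on replicate 3 of the 1-week group, the array that stood apart, and on the processing. Without that array, Itgb1 was called at 1 week (1.14, adjusted p = 0.00811) and at 3 weeks (0.81, adjusted p = 0.0369). With all arrays kept, quantile normalization (1.08 and 0.925) and the mean of both probes (1.21 and 0.85) also gave calls at 1 and 3 weeks. A replicate block did so at 1 week (0.93), and no other alternative with all arrays gave one. With only the groups compared, which leaves out the 1-week arrays, Itgb1 was called at 3 weeks (0.81, adjusted p = 0.0297). The second Itgb1 probe, listed at position 3163 against 3569 for the one used, read replicate 3 of the wild-type 1-week group as the highest of all (2.18). On this probe the wild-type controls were at -0.03 and -0.06 and the 1-week arrays at 1.45, 1.05 and 2.18. Its rise at 1 week was called without leaving out any array (1.61 ± 0.30, adjusted p = 0.00119), and its changes in the other 3 comparisons were 0.89, 0.71 and 0.82, none called. Within the slides the probe used rose by 1.19 and 0.97 at 3 weeks in heterozygous rats.

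Itga1 encodes the alpha 1 chain, which with beta 1 binds collagen IV and is abundant on mesangial and vascular smooth muscle cells. Wild-type controls were at 5.57 and 4.97, the 1-week arrays at 6.77, 6.61 and 4.85, and the 3-week arrays at 6.69, 6.52 and 6.14. Heterozygous controls were at 5.31 and 5.71, the 1-week arrays at 6.46, 5.65 and 5.99, and the 3-week arrays at 6.74, 6.71 and 7.08. The 3-week arrays stood above the controls without overlap in both genotypes. None of the 4 changes was called: 0.81, 1.18, 0.52 and 1.33, each ± 0.46, with adjusted p of 0.218, 0.0990, 0.550 and 0.0609. Here too wild-type 1-week replicate 3 was the low array. With it left out, Itga1 was called at 1 and 3 weeks in wild-type rats (1.42 and 1.18, adjusted p = 0.00349 and 0.00929) and at 3 weeks in heterozygous rats (1.33, adjusted p = 0.00489). Without wild-type 1-week replicate 1 the last of these was also called (adjusted p = 0.0456). The 3-week estimates are the same with and without either array, and only the error and the adjustment differ. With all arrays kept, quantile normalization gave a call at 3 weeks in wild-type (1.41) and heterozygous rats (1.40). In heterozygous rats the replicate block and dim values raised to the detection level did so too. With only the groups compared, Itga1 was called at 3 weeks in both genotypes.

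Itga2, whose alpha 2 chain with beta 1 binds collagen I, was near the background of these arrays. Its 3 probes were well above background on 5, 2 and 0 of the 16 arrays, never on a control. On the brightest one the controls lay between -4.98 and -3.33, and the heterozygous 3-week arrays read -1.68, -2.63 and -2.07. Itga5, the alpha 5 chain of the fibronectin receptor, was well above background on 4 of 16 arrays, again on no control. Its levels ran from -4.78 to -3.15 on the controls and from -2.90 to -1.83 on the heterozygous 3-week arrays. With no filter on dim probes, limma called Itga2 higher at 3 weeks in heterozygous rats (adjusted p = 0.0240) and did not call Itga5 (adjusted p = 0.104). That Itga2 call came from its brightest probe, well above background on 2 of the heterozygous 3-week arrays. On its other probes the heterozygous control and 3-week means were -4.65 and -3.01, and -4.29 and -4.45. Neither gene was called in the other comparisons with control. No control measured either gene, so no sizes are given.

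Itgav encodes the alpha v chain of the receptors for vitronectin, osteopontin and fibronectin. Wild-type controls were at 3.45 and 4.06, and the treated arrays at 3.66, 3.78 and 3.43 at 1 week and 4.31, 4.39 and 3.97 at 3 weeks. Heterozygous controls were at 3.29 and 3.12, followed by 3.38, 3.56 and 3.89 at 1 week and 4.06, 4.41 and 4.30 at 3 weeks. The heterozygous arrays formed 3 groups that did not overlap, from control to 3 weeks, while wild-type 3-week arrays reached the same level from controls that differed from each other. The change at 3 weeks was called in heterozygous rats (1.06 ± 0.26, adjusted p = 0.0156) and was 0.47 ± 0.26 in wild-type rats (adjusted p = 0.249). The heterozygous call was lost without either control or without 3-week replicate 3 (0.97 to 1.14, adjusted p 0.0516 to 0.126). Within the slides it was 1.01 and 1.12. In wild-type rats normexp correction raised the 3-week change to 1.05, which was then called (adjusted p = 0.0344).

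Itgb6 encodes the beta 6 chain, whose expression is limited to epithelium. It was called in no comparison on either of its probes. Its levels ran from 2.55 to 3.36 on the 4 controls and from 2.33 to 3.65 on the 12 treated arrays. The changes were -0.26, 0.22, 0.46 and 0.41, each ± 0.34. The 95% interval of the heterozygous 3-week change reached from -0.30 to 1.13, so a rise of the size seen for Itgav is within it.

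Itgb2 encodes CD18, the beta 2 chain shared by the leukocyte integrins. It was well above background on none of the 4 controls, on 1 of 3 wild-type and 2 of 3 heterozygous arrays at 1 week, and on all 6 arrays at 3 weeks. The wild-type arrays read -2.12 and -2.93 as controls, -1.43, -2.51 and -1.502 at 1 week, and -1.42, -0.82 and -1.60 at 3 weeks. The heterozygous controls read -3.57 and -1.88, followed by -1.19, -2.15 and -1.99 at 1 week and -0.98, -0.78 and -0.54 at 3 weeks. The 3-week arrays were above the controls in both genotypes. With the undetected controls set at the lowest signal well above background, Itgb2 was at least 2.93-fold higher at 3 weeks in heterozygous rats (adjusted p = 0.0144). In wild-type rats it was at least 1.06-fold higher, not called (adjusted p = 0.0960). Itgb2 passed the detection filter only through the 3-week groups, where it was highest. With no filter on dim probes, the call in heterozygous rats did not hold in limma's test (adjusted p = 0.0507). The heterozygous call was lost without heterozygous control replicate 1 (adjusted p = 0.215), without 3-week replicate 3 (adjusted p = 0.0511) and under normexp correction (adjusted p = 0.0884). Within either slide the 3-week arrays were above the control, and neither slide alone gave a call (adjusted p = 0.0508 and 0.15). Since no control measured the gene, the log2 differences under these settings are not sizes and are not given.

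Other leukocyte genes were called higher too, some of them in comparisons where Itgb2 was not called. Of 8 tested pan-leukocyte markers, 6 rose at 3 weeks in each genotype, 4 at 1 week in wild-type and none at 1 week in heterozygous rats. The median changes were 1.61 and 1.64 at 3 weeks. Of 10 tested macrophage markers 7, 7, 7 and 8 rose in the 4 comparisons with control, and 1 fell at 3 weeks in heterozygous rats. Trem2, a lipid receptor of macrophages, rose by 4.31 ± 0.55 in heterozygous rats at 3 weeks, and Cd53, a leukocyte tetraspanin, by 2.35 ± 0.51. Summed on the linear scale, the pan-leukocyte list was at 17.4 to 26.7 on the controls and at 54.9 to 103 on the 3-week arrays, in units of the 75th percentile. The macrophage sum did not follow the count of markers called. It was 122.5 to 205.5 on heterozygous controls, 72.9 to 87.5 at 1 week and 99.9 to 152.7 at 3 weeks, and in wild-type rats 72.0 to 98.1 on controls and 63.2 to 97.8 on treated arrays. Cx3cr1, a chemokine receptor with the highest level in the list, was the 1 marker that fell at 3 weeks in heterozygous rats (-1.46, adjusted p = 0.0488). Of 8 neutrophil markers only 2 were tested and neither was called, and S100a8, Cxcr2, Fpr1 and Mmp8 were well above background on no array.

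Itgam encodes CD11b, the alpha chain that pairs with beta 2. On the probe used, its mean was lower than control in every treated group, while that of Itgb2 was higher. In the fit of all 6 groups, Itgam was called in heterozygous rats alone, and Itgb2 only at 3 weeks in those rats. The probe used was well above background on all 16 arrays. Wild-type controls were at 3.07 and 2.35, then -0.07, 1.64 and -0.17 at 1 week and -0.07, -0.79 and -0.21 at 3 weeks. Heterozygous controls were at 4.00 and 4.94, then 1.67, -0.42 and 0.68 at 1 week and 4.14, -0.47 and 0.15 at 3 weeks. All treated arrays but 1, heterozygous 3-week replicate 1, were below every control. The falls called were -3.83 ± 1.02 at 1 week (adjusted p = 0.0334) and -3.20 ± 1.02 at 3 weeks (adjusted p = 0.0451) in heterozygous rats. In wild-type rats the changes were -2.24 (adjusted p = 0.120) and -3.07 (adjusted p = 0.0570), each ± 1.02. Without heterozygous 3-week replicate 1 they were called (adjusted p = 0.0138 and 0.00495), and without its replicate 2 the 3-week change was (adjusted p = 0.0404). With only the groups compared in limma's fit, both wild-type falls were called as well (adjusted p = 0.041 and 0.00398).

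The heterozygous 1-week call of Itgam was lost on leaving out either control or 1-week replicate 2 or 3 (-4.30 to -3.30, adjusted p 0.0879 to 0.218). The 3-week call held only on omitting a wild-type 1-week array, heterozygous 1-week replicate 1 or 2, or heterozygous 3-week replicate 1, and was lost in the other 10 omissions (-3.66 to -2.33, adjusted p 0.0539 to 0.246). Normexp (-2.89 and -2.32, adjusted p = 0.0545 and 0.0629) and the replicate block ended both calls. The 3-week call was also lost under quantile normalization (-3.08, adjusted p = 0.0635) and with only the groups compared (-3.20, adjusted p = 0.107), and it held in 11 of the 27 alternatives and omissions run. Within the slides the heterozygous changes were -2.33 and -4.81 at 1 week and -3.85 and -3.10 at 3 weeks. The change lay below 0 in every comparison with control under each alternative run, but it was seen on 1 probe. The other Itgam probe, in the coding sequence shown above, was well above background on 2 arrays, a wild-type and a heterozygous 3-week array (-2.54 and -0.61). No control reached that mark on it (-4.02 to -3.16). On the array where the coding probe was brightest, heterozygous 3-week replicate 3, the probe used was at 0.15. The 2 probes thus differed in which arrays were high.

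The CA repeat of the Itgam probe used is a feature that other tested genes share. A run of 5 or more CA or TG units was present in the probes of 119 tested genes, Itgam among them. This set was chosen after the sequence was seen and was not tested. Their median change was -0.55 and -0.95 in wild-type rats at 1 and 3 weeks and -1.05 and -1.06 in heterozygous rats, against medians of all genes between -0.03 and 0.01. Of all 16007 genes, 8180 and 8204 had a change below 0 in wild-type rats at 1 and 3 weeks, and 8377 and 7904 in heterozygous rats. Of the 119, 87 and 114 had a change below 0 in wild-type rats at 1 and 3 weeks, and 100 and 110 in heterozygous rats. Called lower were 3, 4, 4 and 18 in the same order, beside 14.3%, 5.52%, 3.2% and 6.52% of all genes. Called higher were 2, 2, 0 and 2, beside 12.8%, 8.72%, 4.28% and 9.35% of all genes. The part of the repeat in the Itgam result was not tested. Erythroid genes were lower on the treated arrays as well: their summed level was 28.0 to 34.8 on heterozygous controls and 3.95 to 8.74 on treated heterozygous arrays. In wild-type rats the 2 controls were far apart, at 6.47 and 31.4, and the treated arrays were at 2.35 to 6.16. In each comparison with control 2 or 3 of the 5 genes fell. Their part in the Itgam result was not tested either.

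**Figure D3:**
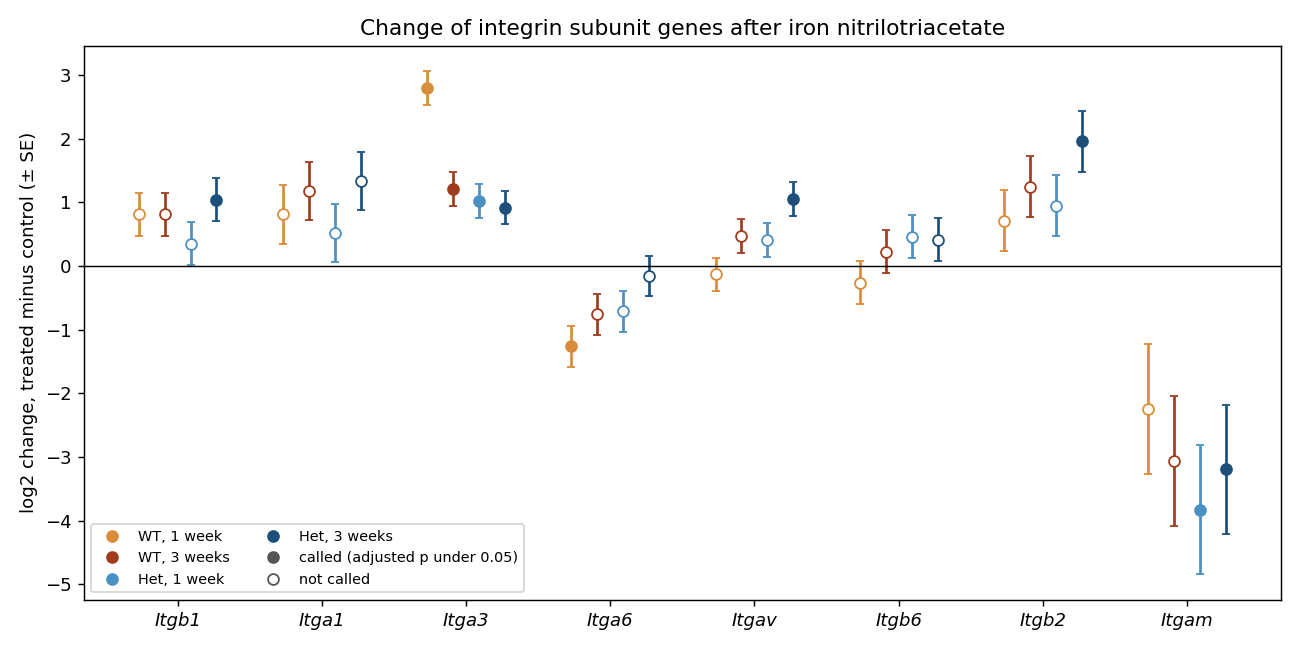
Log2 change of the 8 tested integrin subunit genes, treated minus control of the same genotype, with SE bars. Filled points had an adjusted p under 0.05 in limma's test over 16007 genes. Itga3 is filled in all 4 comparisons, from 2.80 in wild-type rats at 1 week to 0.92 in heterozygous rats at 3 weeks, and Itgam lies below 0 in all 4. The Itgb2 points are differences from controls that were not well above background.

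Few differences between genotypes were called. Among controls, limma called no gene (0% of 16007, with 738 at an unadjusted p under 0.05), and no member had an unadjusted p under 0.05. At 1 week 0.562% of all genes were called, among them Itga3, which was lower in heterozygous than in wild-type rats by 1.23 ± 0.24 (adjusted p = 0.0338). The heterozygous 1-week arrays (0.13 to 0.84) and the wild-type 1-week arrays (1.59 to 1.94) did not overlap. This call held on omitting wild-type 1-week replicate 1, wild-type 3-week replicate 1, heterozygous 1-week replicate 3 or any heterozygous 3-week array. It was lost in the other 10 omissions (-1.28 to -1.03, adjusted p 0.0533 to 0.231), under normexp (-0.67, adjusted p = 0.0797) and with slide as a block (-1.22, adjusted p = 0.0601). The other Itga3 probes gave -0.85 and -1.17 with neither called. At 3 weeks no gene was called (0%, with 931 at an unadjusted p under 0.05) and no member had an unadjusted p under 0.05.

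The difference of the treatment effects between genotypes was tested as an interaction. At 1 week limma called no gene (0%, with 1218 at an unadjusted p under 0.05). For Itga3 the interaction was -1.78 ± 0.37, adjusted p = 0.275, and Itga3 was the only member with an unadjusted p under 0.05. At 3 weeks again no gene was called (0%, with 759 at an unadjusted p under 0.05), and no member had an unadjusted p under 0.05. The calls of Itgav, Itgb1 and Itgb2 in heterozygous but not wild-type rats at 3 weeks are thus not shown to differ between the genotypes. The interactions of Itgav and Itgb1 were 0.58 ± 0.37 and 0.23 ± 0.48, and that of Itgb2 has no size, since its controls were undetected in both genotypes. Between 1 and 3 weeks of treatment in heterozygous rats, 0.187% of all genes rose and 0.119% fell. No member was called there, and 3 had an unadjusted p under 0.05.

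In the 4 comparisons with control, the genes called among the ligands of these receptors were all higher. Of 13 tested collagen and laminin genes, 9 and 10 rose in wild-type rats at 1 and 3 weeks and 5 and 9 in heterozygous rats, and none fell. The median changes were 1.55, 1.63, 1.28 and 1.96. Col4a2, a chain of the basement membrane collagen bound by alpha 1 beta 1, rose in all 4 comparisons (2.29, 2.09, 1.85 and 1.96, each ± 0.32). Col6a1 rose by 1.85 ± 0.40 at 3 weeks in wild-type rats and Col4a1 by 2.33 ± 0.38 at 3 weeks in heterozygous rats.

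Of 10 tested RGD and provisional matrix genes 6, 7, 5 and 6 rose in the same order of comparisons and none fell. Spp1 encodes osteopontin, a ligand of alpha v integrins. It rose by 7.28, 7.42, 6.39 and 7.72, each ± 0.43. Fn1, fibronectin, rose by 3.35, 2.92, 3.12 and 4.30, each ± 0.47. Among 8 tested ligands of leukocyte integrins 5, 5, 4 and 4 rose. Fgb encodes a chain of fibrinogen, the protein that Mac-1 binds. It was at least 15.3-fold higher at 1 week in wild-type rats and at least 11.9-fold at 3 weeks. In heterozygous rats it rose by 3.15 and 3.05, each ± 0.49. Icam1, the endothelial ligand of beta 2 integrins, was at least 4.60-fold and 4.74-fold higher in wild-type rats at the 2 times and rose by 2.41 ± 0.35 at 3 weeks in heterozygous rats. Fga, another fibrinogen chain, rose by 1.77 ± 0.37 at 1 week in heterozygous rats.

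Of 29 tested adaptor and signalling genes 10, 6, 3 and 9 rose and none fell, with median changes of 0.81, 0.44, 0.51 and 0.52. Actn1, alpha-actinin 1, which ties integrins to actin, rose by 2.93, 1.63, 1.60 and 1.48, each ± 0.27. Flna, filamin A, was at least 5.79-fold and 1.77-fold higher in wild-type rats and rose by 1.78 and 2.09, each ± 0.43, in heterozygous rats. Of the 16 other integrin subunits 8 were tested. Itgb4, the partner of alpha 6 in hemidesmosomes, rose by 2.64 and 3.27 in wild-type rats and 2.71 at 3 weeks in heterozygous rats (each ± 0.64), and its 1-week change there was 1.35 (adjusted p = 0.226). Itgal, CD11a, another partner of beta 2, was at least 1.04-fold higher at 1 week in wild-type rats. Itgb8 fell there by 0.98 ± 0.28, and Itga9 rose by 1.14 ± 0.36 at 3 weeks in heterozygous rats.

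**Figure D4:**
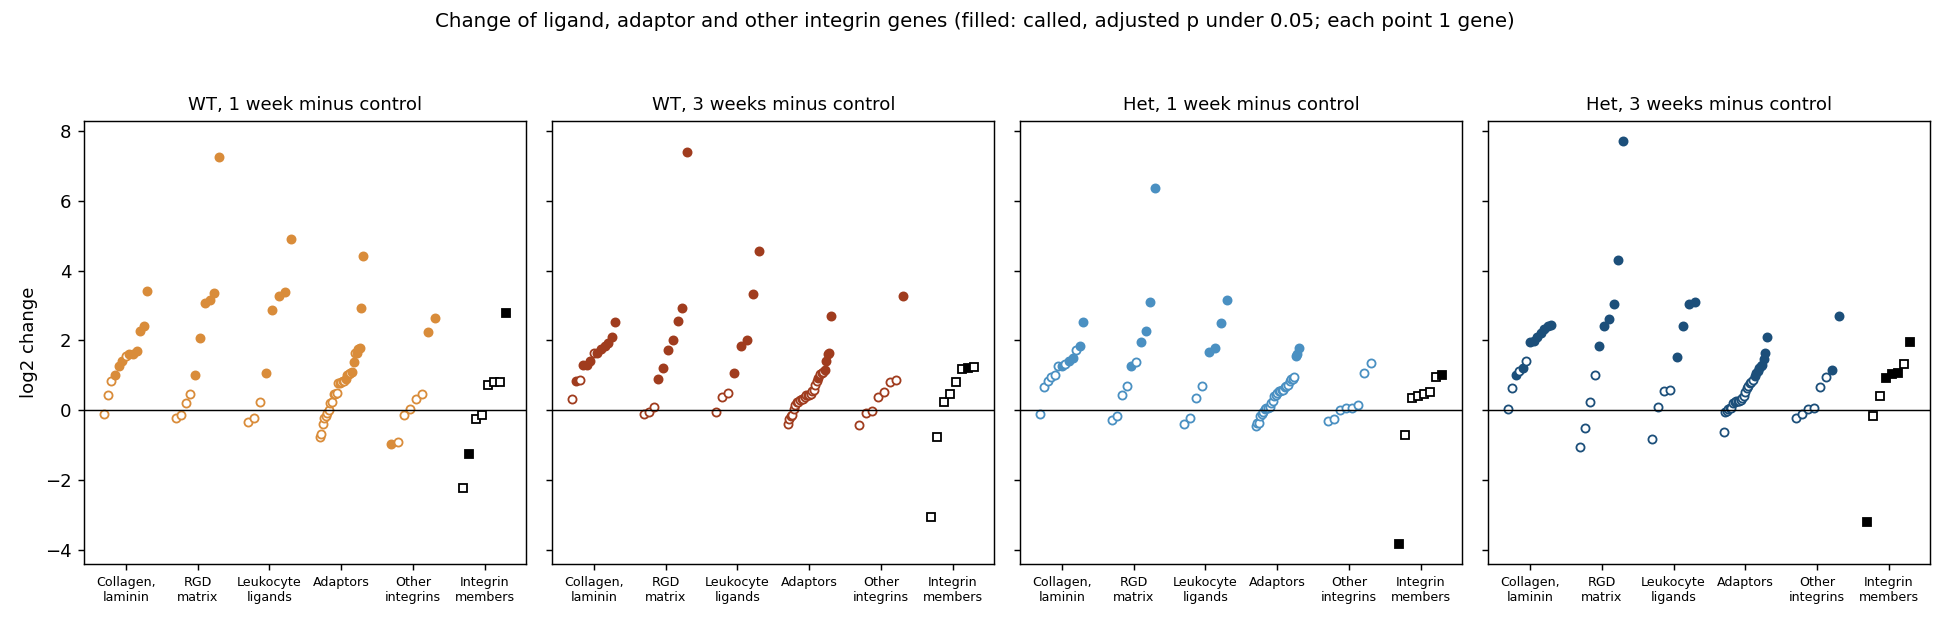
Log2 change of each tested gene of 5 lists (ligands, adaptors and other integrins) and of the 8 tested integrin subunits described here (squares), treated minus control of the same genotype. Filled points had an adjusted p under 0.05. The highest point in each panel is Spp1, at 6.39 to 7.72, and no gene of the ligand and adaptor lists is filled below 0.

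The cell types that carry these chains were read from marker lists on the same arrays. Of 12 proximal tubule markers 11 fell at 1 week in wild-type rats, and 3, 3 and 4 fell in the other comparisons with control, where 1 rose at 3 weeks in wild-type rats. Their summed level was 1434 to 2359 on the controls and 136 to 1128 on the treated arrays, with the lowest values (136 to 296) on the wild-type 1-week arrays that were highest for Itga3. Miox, a myo-inositol oxygenase of the proximal tubule, fell there by 5.48 on the log2 scale, with an SE of 0.65. Of 7 tested fibroblast and mesangial markers 4, 3, 2 and 4 rose, with Pdgfrb, the mesangial growth factor receptor, up by 2.60 ± 0.29 at 1 week in wild-type rats. The fibroblast and mesangial sum was 15.2 to 21.2 on controls and 32.2 to 78.1 on treated arrays. Podocyte and endothelial lists held at most 1 gene up and 2 down of 8 in any of these comparisons. The endothelial sum was 270.2 to 279.8 on heterozygous controls and 98.1 to 241.4 on treated heterozygous arrays, without overlap, and 166.6 to 167.9 against 86.3 to 177 in wild-type rats. The podocyte sum was 71.0 to 85.3 on heterozygous controls and 41.8 to 78.4 on treated arrays, and 63.8 to 75.9 against 31.3 to 65.7 in wild-type rats. Of 8 collecting duct markers 1 and 4 rose in wild-type rats at 1 and 3 weeks and none in heterozygous rats, and of 4 lymphocyte markers 1 rose at each time in wild-type rats. The part of these shifts in the integrin results was not tested.

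Across all 16 arrays, Itga1 and Itgb1 were the members most alike in level (Pearson r = 0.915), and Itga3 and Itga6 the most opposed (r = -0.737). These values describe arrays that share groups and are given with no test. Among the genes most like each member were Ogfr and Myl12b for Itga1 (0.987 each), Tpm4 and Tubb6 for Itga3 (0.963 and 0.962), and Zfp697 for Itga6 (0.953). For Itgb1 they were Ice1 and Nck2 (0.976 and 0.972), and for Itgav Padi2 and Ltbp2 (0.880 and 0.833). For Itgb6 they were Tmem200b and Mgmt (0.896 and 0.877), for Itgb2 C1qtnf1 and Batf (0.910 and 0.898), and for Itgam Sin3a and Cdkl3 (0.969 and 0.968). The probe of Cdkl3 is among the 119 with a CA or TG run.

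The promoters of Itga1 and Itgb1, which were alike in level, and of Itga3, the member called in all 4 comparisons with control, are shown for what their sequences share. They run from 250 bases before to 50 after the start of the gene in the RefSeq table of build GRCr8, where 8 of the 10 members had an entry. Capitals mark GGGCGG on either strand, a motif of Sp1-type factors that 33.1% of 33469 promoters of this length held.
Itga1 (chr2:48545234-48545533, minus strand): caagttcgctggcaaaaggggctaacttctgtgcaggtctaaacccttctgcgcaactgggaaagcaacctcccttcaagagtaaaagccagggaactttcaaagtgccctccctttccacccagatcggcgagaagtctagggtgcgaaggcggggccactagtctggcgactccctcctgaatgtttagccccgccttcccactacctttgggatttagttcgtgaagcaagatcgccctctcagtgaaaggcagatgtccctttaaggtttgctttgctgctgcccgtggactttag
Itgb1 (chr19:73602027-73602326, plus strand): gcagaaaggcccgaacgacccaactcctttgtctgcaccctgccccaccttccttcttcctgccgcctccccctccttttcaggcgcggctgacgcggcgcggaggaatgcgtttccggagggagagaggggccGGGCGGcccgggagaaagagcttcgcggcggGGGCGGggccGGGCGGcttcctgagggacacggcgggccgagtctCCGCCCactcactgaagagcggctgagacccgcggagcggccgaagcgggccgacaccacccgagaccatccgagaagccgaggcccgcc
Itga3 (chr10:80518852-80519151, minus strand): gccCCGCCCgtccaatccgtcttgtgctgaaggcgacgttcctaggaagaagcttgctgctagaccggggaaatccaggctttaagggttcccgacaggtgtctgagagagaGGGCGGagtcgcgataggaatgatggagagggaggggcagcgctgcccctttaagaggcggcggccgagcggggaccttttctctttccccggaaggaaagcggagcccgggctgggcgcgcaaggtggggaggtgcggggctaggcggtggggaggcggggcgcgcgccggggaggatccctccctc
The Itgb1 window held the motif 4 times and Itga3 2 times, and Itga1 had no match. The windows of Itgb1 and Itga3 held 35 and 27 CG dinucleotides and that of Itga1 held 11. The letters TGANTCA, a loose form of the AP-1 motif with N any base, were in none of the 8 member promoters and in 7.33% of all promoters. TATAAA, the TATA box, was in none of the 8 and in 14.2% of all. CCAAT was in that of Itga3 alone among the 8 and in 37.5% of all. GAGGAA, a purine box of the PU.1 type, occurred 2 times in the Itgam promoter, 1 time each in those of Itga5, Itgav, Itgb1 and Itgb6, and in 27.6% of all. All 5 motifs were searched on both strands, and no matches of different motifs overlapped in the member promoters. The Itga1 window held none of the 5.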

How the data were processed

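RNA was hybridised to 1-colour Agilent arrays, and each deposited file gives the spot intensity of 1 array as Feature Extraction 10.7.1.1 wrote it, per the file headers. The headers name the build as rn4 (RGSCv3.4). Intensities in the processed signal column were already background-subtracted by that software, per the file headers. Control spots and outlier spots were left out, spots of 1 probe were averaged, and log2 of the signal over the 75th percentile of the array was taken. The value table that the authors deposited is on a log2 scale for the same probes, and 99.9% of its values lay within 0.1 of these after centring each array. It served as an alternative.

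Probes were kept where all arrays of at least 1 group were well above background, which left 20431 probes. A probe dim on the controls could thus enter the test only through groups where it was brighter. Gene names came from the files, updated through RefSeq accessions for 21229 probes, of which 2233 changed name. Annotation columns such as the sequence and position of a probe were used as deposited. All 6 groups entered 1 fit in limma 3.58.1 (R 4.3.3), with lmFit, eBayes and Benjamini-Hochberg adjustment over all genes. A probe below background in a whole group gives only a bound: the bright mean over the lowest signal well above background of each dim array, or the probe's own value where higher. The fit was tested on simulated data for the wild-type 1-week comparison. Among 16007 genes it called 64 of 100 shifted by 2 on the log2 scale and 5 of 100 shifted by 1. Far more genes, 4341, were called in the real comparison. The adjustment was therefore stricter in the simulation, and these shares do not carry over to the data. The number of arrays limits the precision. Replicate numbers do not come from shared animals in the labels and were not used to pair arrays. The members and lists were chosen with earlier results of these data known. The genes named from each list were the 2 called with the smallest p in each comparison with control, and for each member the 2 most correlated genes, of which a few are not reported here. Itgb8 was named after its value was seen. Alternatives were background correction, normalization, filter, slide, replicate block, groups in the fit, choice of probe, the deposited values and omission of each array.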

Additional observations from a re-analysis of the deposited data

How the results depend on the processing

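Results for single genes were compared under the alternatives and on the other probes, without the counts of members. Of these, 1286 kept direction and side of the threshold, 110 lost the call, 34 gained one and 41 changed sign, all 41 for changes not called. The cause of these shifts was not tested unless the alternative has fewer arrays or genes. The deposited values and dim values raised to the detection level kept every count of called members within 1.5 times. In wild-type rats at 1 week (2 called), normexp gave 1 and slide 2 alone 0. At 3 weeks (1 called), the mean of probes gave 3, quantile normalization 3, only the groups compared 5, no filter 0 and slide 2 alone 0. In heterozygous rats at 1 week (2 called), normexp, no filter and either slide alone gave 0 and only the groups compared 1. At 3 weeks (5 called), normexp, no filter and slide 1 alone gave 1 and slide 2 alone 0. From 1 to 3 weeks in wild-type rats (1 called) either slide alone gave 0. The genotype difference at 1 week (1 called) gave 0 with the mean of probes, no filter, normexp, only the groups compared, slide as a block and either slide alone. A slide alone has fewer arrays. The 1 call with no filter at 3 weeks in heterozygous rats was that of Itga2, and none of the 5 members called there held. Omitting 1 array gave 1 to 4 and 0 to 3 calls in wild-type rats at 1 and 3 weeks, 0 to 2 and 0 to 6 in heterozygous rats, 1 from 1 to 3 weeks in wild-type rats, 0 to 1 for genotype at 1 week and 0 elsewhere.

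Of 36 pairs of arrays with the same replicate number, 8 had deviations correlated above 0.1 (-0.34 to 0.45). Pairs with different numbers were not set beside them, so these values cannot show whether the numbers pair arrays. With a replicate block, members called were 3, 1, 0 and 5 in the 4 comparisons with control. Itga3 (0.94, adjusted p = 0.0580 in limma) and Itgam (-3.63, 0.0516) lost the heterozygous 1-week call and Itgam the 3-week one (-2.998, 0.0581), while Itga1 at 3 weeks in heterozygous rats (1.501, 0.0388) and Itgb1 at 1 week in wild-type rats (0.93, 0.0457) gained one.

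Sign changes in the 4 comparisons with control were these. In wild-type rats at 1 week, Itgav (-0.13) was 0.28 under normexp, 0.12 under quantile normalization and 0.33 on slide 2 (-0.44 to 0.17 on omitting 1 array), Itgb6 (-0.26) was 0.12 and 0.31 under normexp and on slide 2 (-0.50 to 0.003), and Itgb2 (0.71, a difference from undetected controls here and below) was -0.074 under normexp, -0.067 with dim values raised and -0.39 on slide 2. In wild-type rats at 3 weeks Itgb2 (1.25) was -0.062 under normexp and Itgb6 (0.22) was -0.10 on slide 1 (-0.009 to 0.45). In heterozygous rats Itgb2 at 1 week (0.95) was -0.19 on slide 2, and Itga6 at 3 weeks (-0.16) was 0.10 on slide 2 (-0.53 to 0.21). From 1 to 3 weeks in wild-type rats, Itga1 (0.37) was -0.47 on slide 2 (-0.24 to 0.72) and Itgb1 (0.00) was -0.36 with the mean of probes, -0.71 on the other probe, -0.16 under quantile normalization and -0.38 on slide 2 (-0.33 to 0.22). In heterozygous rats, Itga3 (-0.10) ran from -0.30 to 0.055 on omitting 1 array, Itga6 (0.56) was -0.13 on the other probe, Itgam (0.63) was -1.52 on slide 1 (-0.80 to 1.51), and Itgb6 (-0.04) was 0.14 with the mean of probes, 0.026 under normexp, 0.32 on the other probe and 0.15 on slide 1 (-0.23 to 0.11). For genotype, Itga3 was 0.55 in controls and -0.52 on another probe, and at 3 weeks 0.25 against -0.10 with the mean of probes and -0.48 and -0.074 on the other probes. Its 3-week interaction (-0.29) was 0.08 under normexp and 0.038 on another probe. The other probes were looked at after seeing the data. Signal near background limits Itgb2, Itga2, Itga5 and Itga3 in controls.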
